A study of Mus musculus with 8 samples.

Results

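Astrocyte-selective regions were stretches of open chromatin in which the transposase cut far more often in astrocyte (AST) nuclei than in all other nuclei of the mouse hippocampus at postnatal day 21 (P21). The authors called ATAC peaks in each of 4 libraries. Peaks that overlapped were merged here into 253748 regions, and 154785 of them held a peak in every library. A nucleus was gated as AST when its RNA held 3 or more of the 8 markers Aqp4, Gja1, Atp13a4, Grin2c, Slc39a12, Etnppl, F3 and Slco1c1 and at most 1 UMI in the sum of Slc17a7, Gad2, Mog and Csf1r. A region was selective when the gated nuclei gave 50 or more cuts in it in each diet and when its CPM, the cuts plus 1 per 1000000 cuts in shared regions, was at least 4 times that of all other barcodes in the pooled MF libraries and again in the pooled HF libraries. This rule took 5398 regions, or 3.49% of the 154785. The regions were thus chosen by their cuts in gated nuclei and the folds over the other barcodes, which are given as a description and without a test.

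The study compared pups of dams fed a control diet (MF, 2 mg/kg) or an excess (HF, 20 mg/kg) of folic acid (FA), using single-nucleus multiome sequencing, which reads RNA and open chromatin from the same nucleus. Both groups were wild-type C57BL/6J mice. By the labels dams were 8 weeks old when they were placed on the diet, 2 weeks before mating, and they stayed on it while pregnant and nursing. The study's methods also allow for older dams. Nuclei came from the hippocampi of male pups, with 2 libraries per diet. The study treated the libraries of a diet as biological replicates, and how many pups or litters went into a library was not stated, so p-values between diets measure only the spread between these libraries. The gate took 198 and 318 nuclei from MF replicates 1 and 2 and 609 and 380 from HF replicates 1 and 2, which made 1505 of 14297 barcodes. They held 2505022 to 7207805 cuts and 706265 to 2013359 UMIs per library. MF replicate 1 had the lowest share of gated nuclei, 5.64% against 10.6 to 14.4% in the other libraries. Libraries shared 111 barcodes, of which 1 was gated in more than 1 library.

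Astrocytes clear glutamate and potassium from around synapses, supply neurons with lipids and metabolites, and wrap blood vessels with their endfeet. A cell type keeps a set of enhancers and promoters open that other cells keep closed, and transcription factors bind short motifs in them. In astrocytes, factors of the NFI and SOX families are known to act in such regions during the switch from neurogenesis to gliogenesis.

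The central 300 bases of 6 selective regions are shown, because they lie nearest to genes of glutamate uptake (Slc1a2 and Slc1a3), gap junctions (Gja1), glial transcription factors (Rora and Id4) and one-carbon metabolism (Gldc). Each was the region with the highest gated CPM among those that overlapped no annotated UTR. They were read from the + strand of GRCm38.p6 (mm10) at chr2:102620766-102621065, chr15:8815377-8815676, chr10:56899735-56900034, chr9:68679963-68680262, chr13:48130765-48131064 and chr19:30160041-30160340. Capitals mark TTGGCA (NFI), ACAAAG (SOX) and CTAATTA (LHX) on either strand.
Slc1a2: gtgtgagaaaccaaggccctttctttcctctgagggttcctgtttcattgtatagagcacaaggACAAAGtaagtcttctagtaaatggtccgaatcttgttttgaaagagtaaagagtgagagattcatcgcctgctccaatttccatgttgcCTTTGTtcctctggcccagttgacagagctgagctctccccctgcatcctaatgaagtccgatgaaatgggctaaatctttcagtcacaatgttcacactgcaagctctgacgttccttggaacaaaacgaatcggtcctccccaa
Slc1a3: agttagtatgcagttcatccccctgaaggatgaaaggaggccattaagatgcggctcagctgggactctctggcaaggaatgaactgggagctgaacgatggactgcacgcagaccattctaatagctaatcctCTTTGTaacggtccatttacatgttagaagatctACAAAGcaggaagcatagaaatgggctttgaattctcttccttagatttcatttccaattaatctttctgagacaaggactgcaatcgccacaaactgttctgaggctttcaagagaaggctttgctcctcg
Gja1: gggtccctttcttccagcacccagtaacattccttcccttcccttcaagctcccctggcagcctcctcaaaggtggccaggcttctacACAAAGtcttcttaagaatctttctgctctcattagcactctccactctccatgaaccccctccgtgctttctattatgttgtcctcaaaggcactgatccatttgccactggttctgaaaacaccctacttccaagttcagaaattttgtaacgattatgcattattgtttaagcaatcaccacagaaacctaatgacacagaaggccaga
Rora: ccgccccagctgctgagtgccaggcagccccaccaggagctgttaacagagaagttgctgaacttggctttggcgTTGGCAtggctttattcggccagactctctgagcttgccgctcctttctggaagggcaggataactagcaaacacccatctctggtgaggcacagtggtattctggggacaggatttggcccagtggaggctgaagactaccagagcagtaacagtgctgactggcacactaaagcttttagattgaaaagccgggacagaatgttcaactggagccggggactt
Id4: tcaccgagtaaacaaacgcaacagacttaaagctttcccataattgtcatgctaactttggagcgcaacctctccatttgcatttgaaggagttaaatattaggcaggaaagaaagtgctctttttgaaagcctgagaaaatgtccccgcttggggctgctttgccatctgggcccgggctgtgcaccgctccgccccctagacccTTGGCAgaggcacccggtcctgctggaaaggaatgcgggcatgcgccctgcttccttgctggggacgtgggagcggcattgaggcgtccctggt
Gldc: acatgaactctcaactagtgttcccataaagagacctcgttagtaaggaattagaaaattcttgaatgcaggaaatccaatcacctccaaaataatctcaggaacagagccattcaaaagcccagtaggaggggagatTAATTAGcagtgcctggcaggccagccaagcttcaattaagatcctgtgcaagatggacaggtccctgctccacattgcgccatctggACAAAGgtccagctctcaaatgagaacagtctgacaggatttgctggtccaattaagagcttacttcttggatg

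The Slc1a2 region held 2 matches to ACAAAG and lay in an intron of Pamr1, 37.7 kb from the Slc1a2 start. The Slc1a3 region was intergenic, 105 kb from that start, and also held 2 such matches. The Gja1 region was intergenic, 521 kb from the Gja1 start, and held 1 match to ACAAAG. The Rora region lay in a Rora intron, 26.3 kb from the start. The Id4 region lay 130 kb from the Id4 start, in an intron outside protein-coding genes. The Rora and Id4 regions each held 1 match to TTGGCA. The Gldc region lay in a noncoding exon within Gldc and held 1 match to the LHX motif and 1 to ACAAAG. Gated CPM in MF replicates 1 and 2 and HF replicates 1 and 2 was 73.2, 72.8, 71.9 and 73.2 in the Slc1a2 region, where all other barcodes together stood at 4.62. In the Slc1a3 region the values were 59.9, 41.0, 56.0 and 51.7 against 4.07. In the Gja1 region they were 63.3, 46.3, 53.5 and 57.2 against 3.04. The 4 libraries were nearly level in the Slc1a2 region, while MF replicate 2 was the lowest library in the other 2 regions. The distance from the other barcodes was fixed by the rule.

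The RNA of the gated nuclei was first checked against marker lists. All 16 astrocyte markers that the gate had not used were higher in gated nuclei than in the rest in each of the 4 libraries. Slc1a2 RNA was 7699 ± 675 CPM (SD, n = 4 libraries) in gated nuclei and 376 in the rest, and Slc1a3 RNA was 2181 and 83.8. None of the 8 OPC, 8 ODC, 8 MG or 8 INH markers was higher in gated nuclei in all 4 libraries, although the gate itself had kept Slc17a7, Gad2, Mog and Csf1r low. The OPC marker Vcan was higher in 3 libraries, at a mean of 67.6 against 55.4 CPM, and Cspg4 and C1ql1 were nearly level, at 12.8 against 11.9 and 11.2 against 10.9. Of 8 vascular markers 1 was higher in all 4, the pericyte gene Pdgfrb, at 72.0 ± 27.5 CPM (SD, n = 4) against 3.30. The summed level of the 8 choroid plexus and ependymal markers was 25.5, 12.2, 542 and 7.55 CPM in MF replicates 1 and 2 and HF replicates 1 and 2. The HF replicate 1 value came mostly from Ttr (506 CPM), the transthyretin gene of the choroid plexus, and the rest of that library stood at 171. The summed level of 8 markers of cycling cells was 92.0 CPM in gated nuclei of MF replicate 1, against 20.9 in its rest, and 3.02 to 17.4 in the other libraries. Few nuclei of MF replicate 1 held them. Top2a was detected in 1.01% of its gated nuclei and 1.42% of its rest, Mki67 in 1.52 and 4.59% and Ube2c in 1.01 and 0.88%.

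Gated nuclei had fewer UMIs than the rest, with library medians of 2648 to 3037 against 7385 to 9328. A group of 89 gated nuclei had 30000 or more cuts each. They made up 19.7% of all gated cuts, and they came to 5.56, 8.49, 4.11 and 6.84% of the gated nuclei in MF replicates 1 and 2 and HF replicates 1 and 2. Their median share of cuts in selective regions was 8.06%, while gated nuclei with fewer cuts had medians of 15.9 to 16.4%. When these 89 nuclei were left out, a choice made after seeing the data, the rule took 5745 regions, of which 5262 were among the 5398. No doublet caller was run.

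The rule asked for a fold of 4 in the pooled libraries of each diet, and most regions held it in single libraries as well. The single libraries make up the pools, so the choice of regions favours this. The median fold was 7.43 in MF and 6.93 in HF. The fold was 4 or more in all 4 libraries at 4568 regions (84.6%), in 3 libraries at 658 and in 2 at 172. At 5390 regions the fold was over 2 in every library. It reached 8 in both diets at 1836 regions (34.0%) and 16 at 92 (1.70%). The median level over the 5398 regions was 20.8 CPM in gated nuclei and 2.72 in the rest, beside 1.27 and 3.42 over all shared regions. Every selective region held 105 or more gated cuts, and 16 had under 10 cuts in MF replicate 1, where the gate took the fewest nuclei. With MF replicate 2 left out the rule took 3127 regions, of which 3065 were among the 5398.

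At the edge of the rule, the 3 regions just inside had 4.0 as the smaller of their 2 diet folds and lay nearest to Tekt5, Il18 and Wwc1. The Il18 region covered the gene's start and had 62.3 CPM in gated nuclei and 15.3 in the rest. The 3 regions just outside, nearest to Arvcf, Syn3 and Elk3, also stood at 4.0 after rounding. The Elk3 region, an intronic one, had 35.7 against 8.10 CPM. Among the 32221 shared regions with 50 or more gated cuts in each diet, 786 reached a fold of 4 in MF alone and 388 in HF alone. A further 140 regions had the fold but too few cuts.

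The 10 regions with the largest values of the smaller of the 2 diet folds were nearest to Mnx1, Ptgs1, Vps13c, Gm4791, Tcerg1l, Themis3, Tprg, Actrt2, Oaf and Slc9a9. The Mnx1 region (chr5:29523033-29523973, intergenic) had folds of 25 in MF and 21.8 in HF, with 28.9, 24.6, 20.6 and 25.6 CPM in MF replicates 1 and 2 and HF replicates 1 and 2 and 1.04 CPM in the rest. Mnx1 itself, a motor neuron homeobox gene, had 0 UMIs in all barcodes. The Tprg region (chr16:25465294-25466221, intergenic) was the most open of the 10, with 78.6, 70.0, 81.8 and 88.8 CPM and 3.75 in the rest. Of the 10 nearest genes, Mnx1, Gm4791, Themis3, Tprg and Actrt2 had 0 to 25 UMIs and were not compared. Among the other 5 only Oaf was more than 1 log2 unit higher in the RNA of gated nuclei, at 4.24 on the log2(CPM + 1) scale, while Ptgs1 and Slc9a9 stood at 0.24 and 0.38 and Vps13c and Tcerg1l at -0.64 and -0.79. The Oaf region lay in an intron, 29.4 kb from the start.

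The 12 most open selective regions, a set chosen after their values were seen, had levels of 112 to 135 CPM in gated nuclei. The smaller of their diet folds ran from 4.14 near Msi1 to 16.7 in Prodh, beside a median of 6.58 over all selective regions. The middle 50% of selective regions were 899 to 953 bp wide, with extremes of 427 and 1837 bp, and CPM was not divided by width. The region nearest to Mfge8 had 135 CPM in gated nuclei and folds of 7.63 in MF and 7.08 in HF, and OPC stood at 96.4 CPM there. Mfge8 encodes a secreted phagocytosis bridge. The region in an intron of Prodh, the gene of proline dehydrogenase (chr16:18083116-18084047), had 134, 115, 129 and 122 CPM in the 4 libraries in the order above and 6.86 in the rest. OPC stood at 2.08 CPM in it. Regions at Msi1, Sox1 and Pou3f2 followed at 122 CPM each, and these genes encode an RNA-binding protein and 2 transcription factors of neural progenitors. Pou3f2 was open in OPC as well, at 91.7 CPM.

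Cuts in selective regions were then counted for each class of nuclei. OPC, ODC, MG and INH nuclei held 3 or more of their own 8 markers, and EXC nuclei held 2 or more UMIs of Slc17a7. At most 1 UMI was allowed in the defining genes of other classes, which here included Aqp4 and Pdgfra. The AST gate had excluded no OPC gene. Nuclei in the AST gate or in more than 1 class were left out. This gave 804 OPC, 1122 ODC, 1052 MG, 619 INH and 4086 EXC nuclei. In AST, 15.2, 13.8, 13.6 and 14.8% of the cuts in shared regions fell into the 5398 regions in MF replicates 1 and 2 and HF replicates 1 and 2. The share was 4.40% ± 0.23 in OPC, 2.35% ± 0.16 in ODC, 1.88% ± 0.14 in INH, 1.4% ± 0.18 in MG and 1.15% ± 0.05 in EXC (SD, n = 4 libraries). OPC, the progenitors that share a glial lineage with astrocytes, came next after AST in every library. AST and the other classes did not overlap, which the choice of regions fixed.

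**Figure D1:**
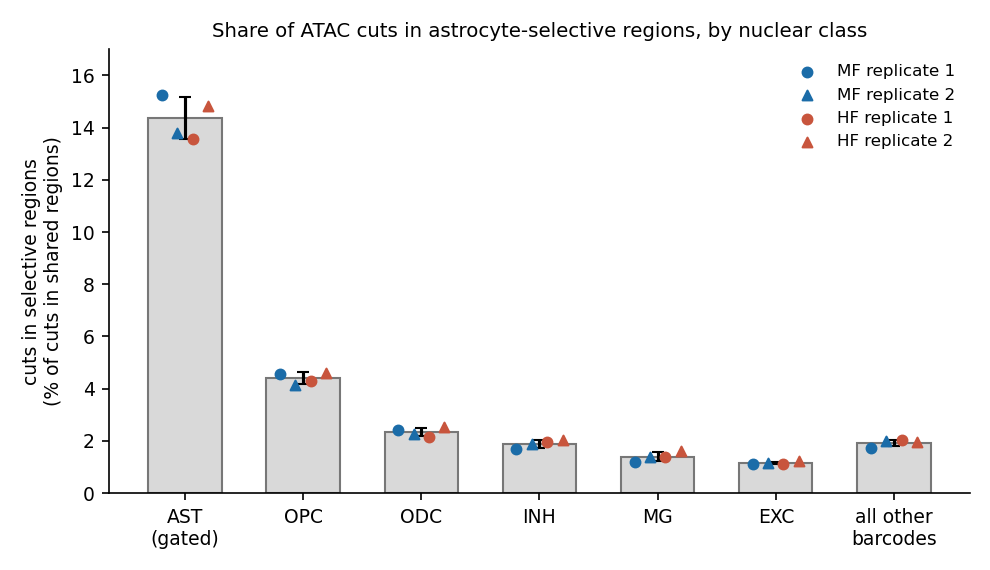
Share of ATAC cuts (% of a class's cuts in shared regions) that fell into the 5398 astrocyte-selective regions, by class of nuclei. Bars are means over 4 libraries, error bars are SD and points are libraries. AST stand at 13.6 to 15.2%, OPC at a mean of 4.40% and EXC at 1.15%.

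The same share was then read in single nuclei, where the distance of AST from the other classes again follows from the choice of regions. The median nucleus had 16.1% of its cuts in selective regions in AST, 4.78% in OPC, 2.22% in ODC, 1.54% in INH, 1.05% in MG and 0.81% in EXC. Gated nuclei with 3 markers had a median of 15.9%, and those with all 8 markers also had 15.9%. Nuclei with 2 markers, which the gate left out, stood at 13.4%, those with 1 at 2.76% and those with none at 1.28%. The 778 barcodes with 3 or more markers and more than 1 UMI of the excluding genes had a median of 5.03%. Outside the gate, 286 barcodes with 1000 or more cuts reached the 10th percentile of gated nuclei, which was 11.6%. Of these, 192 held 1 or 2 markers, 39 held none and 55 were left out by the excluding genes. In the gate, 17 nuclei had under 5%.

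**Figure D2:**
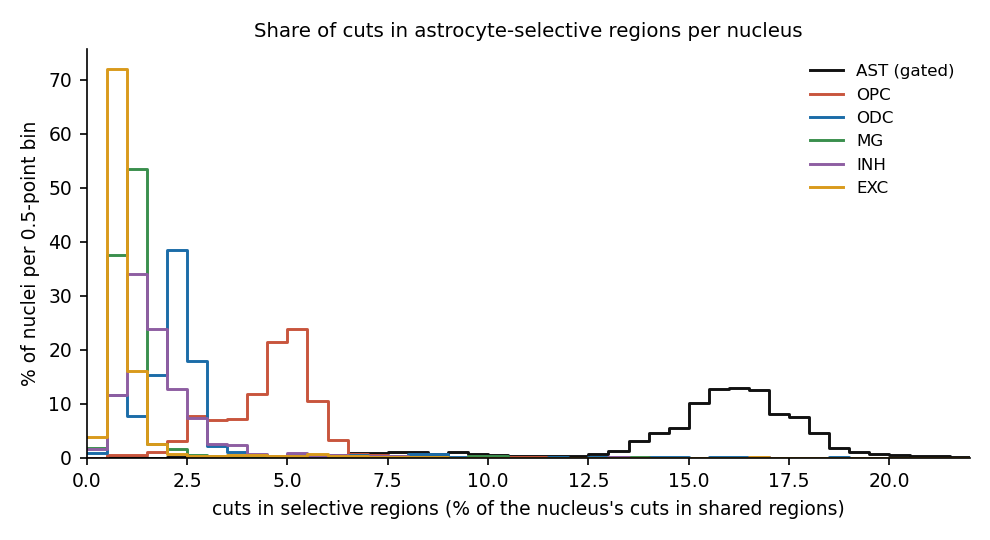
Distribution of the share of a nucleus's cuts (%, in bins of 0.5 points) that fell into astrocyte-selective regions, by class. Lines are the 4 libraries pooled. AST nuclei peak near their median of 16.1%, OPC near 4.78%, and the remaining classes lie below OPC.

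Which other class came closest differed from region to region. OPC had the highest level after AST at 2400 regions (44.5%), INH at 1362 (25.2%), ODC at 920 (17%), MG at 436 (8.08%) and EXC at 280 (5.19%). At 2559 regions (47.4%) AST stood at least 4 times over every other class. All 10 regions nearest to Gja1, the gene of connexin 43 and a gene of the gate, were of this kind. At 1293 regions (24.0%) another class was within 2 times of AST, and at 322 (5.97%) another class was higher. OPC was that near class at 906 regions, MG at 165, ODC at 148 and INH at 74. Notch1, a receptor of glial progenitors, had 5 of its 8 regions among those near OPC and 2 among those near MG. Its RNA was 96.0 CPM in AST and 64.6 in OPC, with 25.7 or less in the other classes. Mertk, a phagocytic receptor, had 2 regions within 2 times of MG, and its RNA was 1128 CPM in AST and 1147 in MG, with 97.2 or less elsewhere. Gsn, which encodes the actin-severing protein gelsolin, had 2 regions within 2 times of ODC, where its RNA stood at 373 CPM against 15.9 in AST. When the rule was applied to other classes it took 3334 regions for OPC, of which 364 were also selective for AST, 10.9% of the OPC set and 6.74% of the AST set. Only 36 of 3639 ODC regions and 78 of 5694 MG regions were.

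Fewer selective regions than shared regions lay at promoters. Within 1 kb of a transcription start lay 429 of them (7.95%), beside 11.9% of all shared regions, 5.55% of the OPC set, 5.30% of the ODC set and 13.5% of the MG set. Introns held 44.6% and intergenic sequence 36.5%, beside 40.6 and 35.4% of all shared regions. Coding exons held 5.61%, noncoding exons 4.19% and untranslated exons 1.17%. The median distance to the nearest protein-coding start was 29.8 kb, beside 30.5 kb over all shared regions, and away from starts it was 34.8 beside 39.7 kb. GC content over the central 300 bases had a median of 51%, beside 48%, and 9.01% of the bases were masked as repeats, beside 11.8%. On single chromosomes, 2.85% (X) to 4.34% (19) of the shared regions were selective, and none of the 17 on Y was. Regions at starts were more open than intergenic ones, with median gated levels of 29.6 and 19.4 CPM, but the smaller of their diet folds had a lower median, 6.03 against 7.0.

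Short motifs of transcription factors were counted in the central 300 bases of the 4969 selective and 136303 shared regions away from starts. The NFI motif TTGGCA stood in 42.5% of selective regions and 26.7% of all, on either strand. In the OPC, ODC and MG sets it stood in 30.3, 21.8 and 20.4%. Its share rose with the fold: among regions with 50 or more gated cuts in each diet it was 21.9% where the smaller diet fold was under 1, 36.0% at 2 to 4, 41.6% at 4 to 8 and 52.2% in the 90 regions at 16 or more. NFI factors bind this element and drive astrocyte differentiation. In 5 bins of GC content the share was 39.0 to 45.2% in selective and 22.3 to 27.8% in all regions. The full palindrome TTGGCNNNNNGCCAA was rare, at 0.08 against 0.07%. A looser one, TGGCNNNNNGCCA, which overlaps it and was added after the values were seen, stood in 2.82 against 1.59%. This rise was not particular to AST, with 3.52% in the OPC set, 3.29% in the MG set and 2.50% in the ODC set. Its share did not rise steadily with the fold: it was 1.77% under 1, 3.85% at 2 to 4, 3.24% at 4 to 8 and 1.11% at 16 or more.

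The LHX homeodomain motif CTAATTA stood in 7.71% of selective regions and 4.20% of all, the ROR motif TAGGTCA in 3.32 and 1.77%, and the glucocorticoid receptor motif GNACANNNTGTNC in 2.37 and 1.05%. Lhx2, Rora and Rorb encode factors of the first 2 families in glia. In the OPC, ODC and MG sets LHX stood in 3.08, 2.41 and 1.63% and ROR in 1.75, 1.92 and 2.80%. The glucocorticoid receptor motif stood in 1.05, 1.22 and 0.91% of them. The SOX motif ACAAAG stood in 31.6 and 24.1%, while ACAATG, another sequence of the same family, was level at 15.5 and 16.1%. In the ODC set these 2 stood in 49.0 and 44.2%. Motifs of neuronal and activity-linked factors went the other way. The NEUROD motif CAGATG stood in 20.0% of selective regions and 38.6% of all, the MEF2 motif TATTTTTA in 1.83 and 5.27%, and the AP-1 motif TGANTCA in 8.39 and 15.2%. Shares under those of all regions were not particular to AST, since NEUROD stood in 30.7, 32.8 and 26.3% of the OPC, ODC and MG sets, MEF2 in 2.25, 2.12 and 4.09% and AP-1 in 9.97, 13.6 and 13.2%. The PU.1 motif GAGGAAGT of myeloid cells was level at 2.41 and 2.26%, beside 14.3% in the MG set. The FOX motif TGTTTAC (4.17 and 4.15%), the TEAD motif GGAATGT (4.71 and 4.69%) and the RBPJ motif GTGGGAA (8.27 and 8.06%) were also level.

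**Figure D3:**
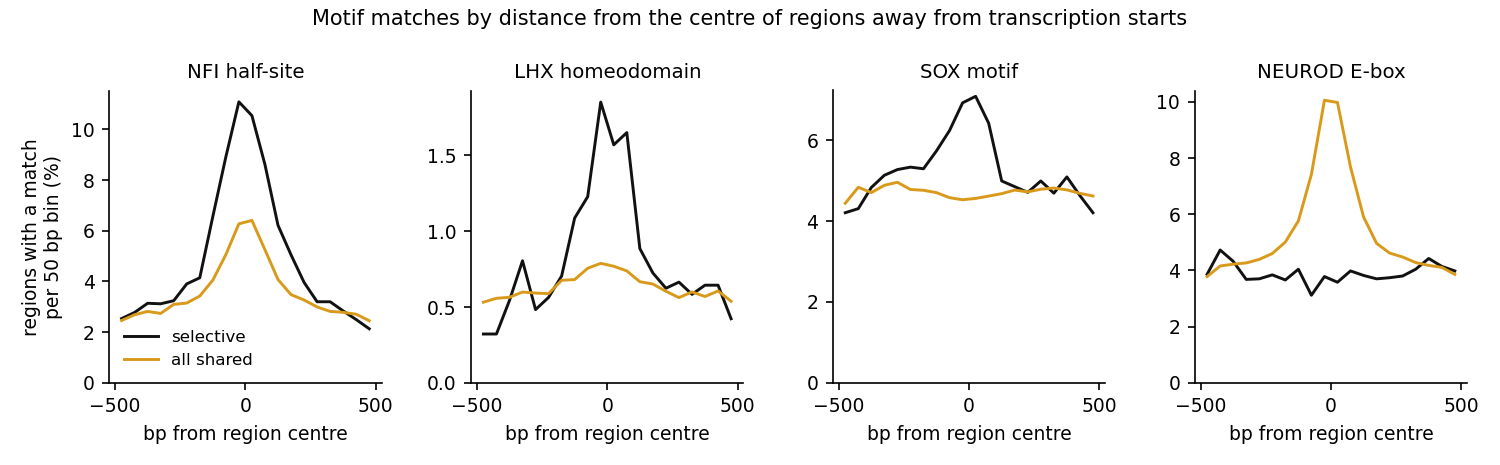
Share of regions (%) with a motif match in each 50 bp bin, by distance from the region's centre, in selective regions and in all shared regions away from starts. In the 2 central bins NFI matches stand in 11.1 and 10.5% of selective regions against 6.28 and 6.41% of all, and NEUROD matches in 3.78 and 3.58% against 10.1 and 9.98%.

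NFI matches in selective regions fell from those central values to 2.54 and 2.13% in the outermost bins. For the SOX motif ACAAAG, selective regions reached 6.92 and 7.08% in the central bins against 4.21% in the outermost ones, where all shared regions showed no peak and stood at 4.53 and 4.56%. For the NEUROD motif it was the selective regions that showed no peak. Regions that were nearly as open in another class differed in these shares. Those within 2 times of ODC held ACAATG in 37.4% of cases, beside 15.5% over all selective regions. Those within 2 times of MG held PU.1 in 8.33%, beside 2.41%, and those within 2 times of INH held the LHX motif in 18.3%, beside 7.71%. These groups had 131, 132 and 71 regions away from starts. A match is a string of letters and no measure of binding, and a missing match says only that those letters are not in the window.

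Each region was assigned to the protein-coding gene with the nearest start. The 5398 regions fell to 3074 of 17731 such genes (17.3%), of which 1911 had 1 region, 150 had 5 or more and 11 had 10 or more. Msi2 and Rora had 16 each, Lsamp 13, Id4 12, Pabpc6, Sox9 and Sash1 11, and Gja1, Zfp36l2, Itpr2 and Id2 10. Msi2 encodes an RNA-binding protein of stem cells, and 16 of the 33 shared regions nearest to it were selective. Pabpc6 was at 0 CPM in every class, so a nearest start is only a label of place. Genes with many selective regions also had many shared regions, with a median of 4 at genes with none and 51 at genes with 10 or more. By share, Daam2 led the genes with 10 or more shared regions, with 8 of 10 selective, followed by Klf15 with 9 of 12 and Fgfr3 with 7 of 11.

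RNA of the nearest genes was read from other molecules than the cuts that chose the regions. The gate used the RNA of 12 genes, which were left out. The median log2 difference between gated nuclei and the rest, on the log2(CPM + 1) scale, was -0.10 for 10982 genes without a selective region. It was 0.19 for 1580 genes with 1 region, 0.76 for 870 genes with 2 to 4, 1.71 for 126 genes with 5 to 9 and 2.77 for 9 genes with 10 or more. The 4 libraries gave nearly the same medians, for example 1.62 to 1.78 at genes with 5 to 9. Over all 2585 genes with a region the median was 0.38, and it was 0.69 when regions were assigned to the genes whose bodies they overlapped. A difference over 1 was found at 33.2% of genes with a selective region, at 6.83% of those without, and at 11.9% of all 13567. Of 270 genes with a difference of 3 or more, 234 (86.7%) had a selective region, and 21.6% of the shared regions nearest to them were selective. AST had the highest RNA level of the 6 classes at 10.6% of genes without a region, 27.0% with 1, 43.1% with 2 to 4 and 58.7% with 5 to 9. Regions at starts stood nearest to genes with a median difference of 2.75, intronic ones 0.76 and intergenic ones 0.34. Many nearest genes were not higher in AST, and 13.2% of those with a region were more than 1 log2 unit lower, beside 15.8% of those without.

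**Figure D4:**
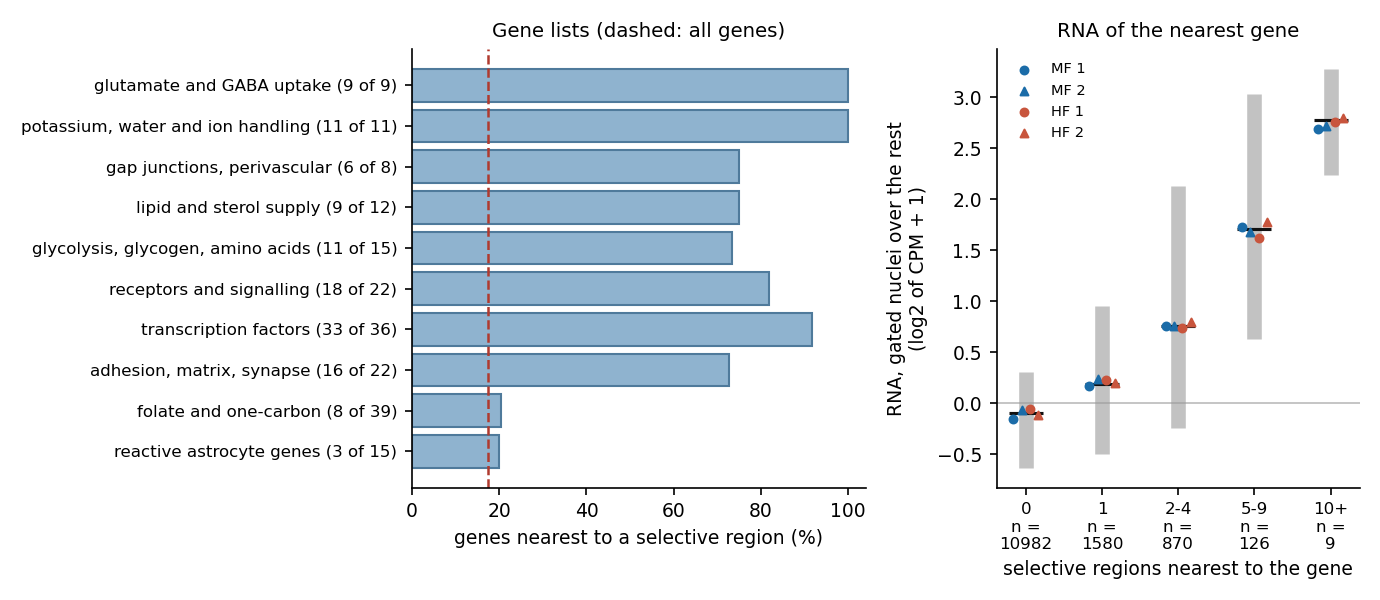
Left, share of the genes of each list (%) that were nearest to a selective region, with the dashed line at 17.3% for all nearest genes. The transcription factor list is that of astrocytes and radial glia. The lists were chosen with earlier results of these data known, and the line does not allow for the number of shared regions per gene. Right, log2 difference in RNA between gated nuclei and the rest by number of selective regions nearest to the gene: lines are medians, grey bars the middle 50% of genes, points the medians of single libraries. The medians go from -0.10 without a region to 2.77 with 10 or more.

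Over all nearest genes 17.3% had a selective region, which is the background for the lists that follow. It does not allow for the number of shared regions per gene. The lists were chosen with earlier results of these data known, so their shares are a description and no test. Of the 3404 shared regions nearest to the 187 listed genes 12.6% were selective, beside 3.49% of all shared regions. Genes of transmitter clearance all had selective regions. In the list for uptake and recycling of glutamate and GABA, 9 of 9 genes had one, with 35 regions in all and a median RNA difference of 3.52. Slc1a2, the main glutamate transporter, had 7, Slc1a3, its partner, 6, and Glul, the gene of glutamine synthetase, and Slc6a11, a GABA transporter, 4 each. The most open Glul region, an intergenic one 77.4 kb away, had 56.6, 49.9, 48.9 and 50.3 CPM in MF replicates 1 and 2 and HF replicates 1 and 2 and 6.56 in the rest. The most open Slc6a11 region, 36.8 kb from the start, had 66.6, 62, 53.4 and 56, but OPC stood at 51.2 CPM there. These 4 libraries lay close together at both genes.

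In the list for potassium, water and ion handling, 11 of 11 genes had a selective region, 37 regions in all, with a median RNA difference of 3.78 over the 9 genes left without the gate genes Aqp4 and Atp13a4. Aqp4, the water channel of the endfeet, and Slc4a4, a sodium bicarbonate transporter, had 7 each. Slc9a9, a sodium-proton exchanger, had 6, and its RNA differed by only 0.38 ± 0.07 (SD, n = 4). Atp1b2, a sodium pump subunit, had 4 of its 5 regions selective, and the most open (chr11:69591874-69592831) reached 91.0, 103, 117 and 105 CPM against 10.2 in the rest. That level was similar in the 4 libraries.

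For gap junctions and contact with vessels, 6 of 8 genes had a selective region, 30 regions in all, and Dag1 and Itgb4 had none. Gja1 had 10, Slco1c1, a thyroid hormone carrier, 5, and Gjb6, the gene of connexin 30, and Lama2, a laminin chain, 4 each. Gja1 and Slco1c1 were gate genes, so the nuclei had been chosen by their RNA. The Slco1c1 region at the start of the gene had 36.4, 29.1, 22.1 and 31.4 CPM, with 1.79 in the rest and 0.09 in OPC. The Gjb6 region near its start had 37.2, 31.4, 27.9 and 29.5 CPM against 2.13. MF replicate 1 was the highest and HF replicate 1 the lowest library at both.

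For lipid and sterol supply, 9 of 12 genes had one, 16 regions in all, and the fatty acid binding genes Fabp5 and Fabp7 had none although their RNA differed by 1.61 and 2.34. Abca1, which exports cholesterol, had 3, and Clu, Lcat and Prodh 2 each. Prodh, the gene of proline dehydrogenase, was counted in this list though its enzyme acts on an amino acid. The Lcat start region had 69.9, 71.9, 64.9 and 72.0 CPM against 5.77. For glycolysis, glycogen and amino acids, 11 of 15 genes had one, 24 regions in all. Psat1, an enzyme of serine synthesis, had 5, Gldc, which cleaves glycine, 3, and Aldoc, a glycolytic aldolase, 2 of 2. Pla2g7 had 3 and was counted in this list though it encodes a phospholipase. The Pla2g7 region 10.3 kb from its start had 79.0, 68.5, 88.9 and 86.2 CPM against 5.86 in the rest.

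Of the shared regions nearest to the listed receptors and transcription factors, 13.4 and 14.6% were selective, beside 3.49% of all shared regions. The share was 24.2% for ion handling and 24.0% for gap junctions, lists that held gate genes, and 21.3% for transmitter uptake. Of 22 receptors and signalling genes 18 had one, 66 regions in all, and Grm5, Adora2b, Gabbr1 and Notch2 had none. Itpr2, the calcium release channel of astrocyte stores, had 10, Notch1 8, Fgfr3, a growth factor receptor, 7, and Grm3, a glutamate receptor, 6. The most open Fgfr3 region (chr5:33704980-33705885), 16.2 kb away, had 100, 95.1, 94.8 and 116 CPM against 6.61. The Itpr2 start region, at 59.5, 51.5, 57.2 and 54.6 CPM, was just as open in OPC, at 53.4, and MG stood at 45.8. Itpr2 RNA was higher in OPC, at 708 CPM, than in AST and MG, at 325 each. The list of transcription factors was made for astrocytes and radial glia. Of its 36 genes 33 had one, 142 regions in all, with Rora 16, Id4 12, Sox9 11 and Id2 10. Sox9 specifies glia, and its most open region (chr11:112976705-112977620), 195 kb from the start, had 64.5, 68.3, 86.7 and 71.4 CPM against 4.49. Gli1, Zic1 and Tfeb had none.

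In the list for adhesion, matrix and synapse-modifying proteins, 16 of 22 genes (72.7%) had one, 64 regions in all, beside 17.3% of all nearest genes. These genes had many shared regions, 849, of which 7.54% were selective, beside 3.49% over all shared regions. Lsamp, a neural adhesion gene, had 13 of its 169 shared regions selective, and Tnr and Ntm 7 each. Tnr, which encodes the matrix protein tenascin-R, was lower in gated nuclei, with a log2 difference of -1.35, although its most open region had 60.8, 65.4, 69.6 and 71.4 CPM against 6.84. The Ntm region most open in gated nuclei had 44.7, 41.6, 41.7 and 48.4 CPM against 2.63.

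Genes of folate and one-carbon metabolism stood near the background of 17.3%, with 8 of 39 (20.5%) nearest to a selective region, 14 regions in all, and a median RNA difference of 0.24 over the 35 genes compared. Gldc and Cbs, which makes cystathionine from homocysteine, had 3 each, and Aldh1l1, which oxidizes formyl-folate, and Mat2b, a subunit of a methionine enzyme, 2 each. The Cbs start region had 59.1, 71.5, 72.7 and 68.3 CPM against 11. The Aldh1l1 region had 71.5, 90.2, 84.9 and 81.0 against 8.03, and OPC stood at 48.8. RNA of Cbs and Aldh1l1 differed by 4.46 and 4.49, and that of Mat2b by -0.16. Shmt1, Tyms and the carriers Slc19a1, Slc46a1 and Folr1 were among the 31 genes without one. Reactive astrocyte genes were similar, with 3 of 15 (20.0%). Gfap and S1pr3 had 2 regions each and Cp 1, and Vim, Lcn2, C3 and Serpina3n had none.

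Some selective regions lay in runs, which were not compared with those of other regions. With gaps of up to 20 kb, 830 runs of 2 or more held 38.3% of them, and 31 runs had 5 or more. The longest held 9 regions, 1 near Tacc3 and Fgfr3 (chr5:33683633-33727649) and 1 at Klf15 (chr6:90446651-90508764), which encodes a glucocorticoid-induced factor. Runs of 8 lay at Daam2, Msi2, Notch1, Zic2 with Zic5, Gm5089 and Gm10837, and Htra1 with Plekha1. The Daam2 run spanned 32.2 kb. Daam2, a gene of Wnt signalling, had 311 CPM of RNA in AST, 133 in ODC and 4.42 in OPC.

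The diet comparison asks whether maternal FA moved these regions in AST. No selective region was called. In edgeR's quasi-likelihood test over library sums of gated nuclei, 0 of 66953 regions (0%) passed an adjusted p of 0.05, and so 0 of the 5398 selective ones, all of which were tested. At an unadjusted p under 0.05 were 130 selective regions (2.41%), 61 higher and 69 lower in HF, beside 2.98% of all tested. DESeq2 also called 0, with 103 selective regions under 0.05 unadjusted, 80 higher and 23 lower in HF. Over all 153221 regions it tested, 2141 (1.4%) were under 0.05, 1124 higher and 1017 lower. The 2 methods thus differed in the direction of the selective regions under 0.05. The median log2 difference, HF minus MF, was -0.01 over selective regions and -0.00 over all, and 90% of the selective ones lay between -0.47 and 0.39. The median standard error was 0.27, and a region that was not called is not shown to be equal in the diets. Both HF libraries stood above both MF libraries at 812 selective regions (15%, beside 16.1% of all) and below them at 672 (12.4%, beside 15.7%). Without MF replicate 2, edgeR called 7 selective regions and 67 in all.

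The share of AST cuts in selective regions was 14.5% ± 1.02 in MF and 14.2% ± 0.91 in HF (SD, n = 2 each), a difference of -0.31 points with an exact two-sided permutation p of 0.667, where 4 libraries allow no p below 0.33. The 2 diets overlapped. Without MF replicate 1 the difference was 0.41 and without HF replicate 1 it was 0.33. Without the 89 nuclei of 30000 or more cuts it was -0.81, from 16.2% in MF and 15.4% in HF.

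The 5 selective regions with the smallest unadjusted p in each direction all had an adjusted p of 1.0 by edgeR. A region 4.71 kb from Ankrd61 had normalised levels of 16.6 and 17.7 CPM in MF libraries. HF libraries stood at 27.2 and 33.4, which made a log2 difference of 0.81 ± 0.26 (SE). A region far from B3galt2 (chr1:143080046-143080918) had 5.24 and 8.36 against 14.5 and 16.1. The diets did not overlap at either region, which the choice by smallest p favours. The region at the start of Ndrg2, a stress-responsive astrocyte gene, differed by 0.48, and those near Actrt2 and Prex2 by 0.49 and 0.50. In the other direction, the region at the start of Kcng4, a potassium channel subunit, stood at 51.5 and 55.3 CPM in MF libraries and lower in HF, at 30.5 and 31.1. The log2 difference was -0.80 ± 0.19 (SE), with an unadjusted p of 0.000619. The authors' peaks there were 1401 and 1062 bp wide in MF and 649 and 726 bp in HF, and with an offset for peak width the difference was 0.00. The region 28.2 kb from Gjb6 had 27.5 and 28.5 against 14 and 18.5, a difference of -0.79 that became -0.31 with the offset. Regions near 1700017N19Rik, Rpl10-ps3 and Lyzl1 differed by -1.0, -0.86 and -0.77, and the Lyzl1 value became -0.37 with the offset.

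**Figure D5:**
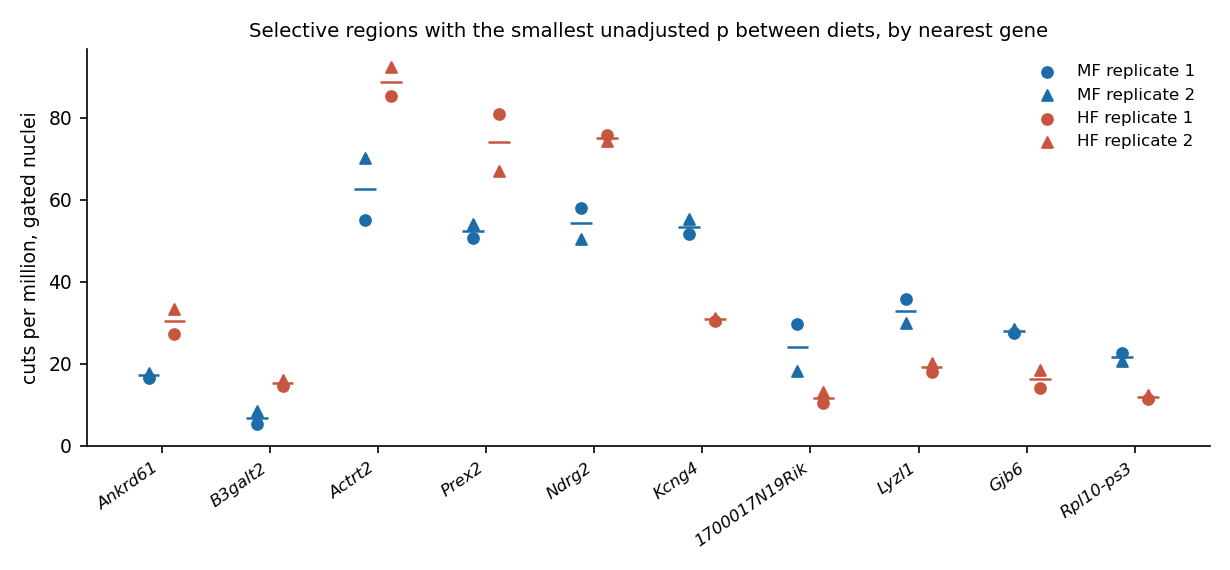
Normalised CPM of cuts in gated nuclei at the 10 selective regions with the smallest unadjusted p between diets, 5 in each direction, labelled by nearest gene. Points are libraries and short lines are diet means. The diets do not overlap at any of the 10, which were chosen by p, while of all tested regions 16.1% stand wholly higher and 15.7% wholly lower in HF. None of the 10 passed adjustment (adjusted p = 1.0 in edgeR).

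RNA of genes nearest to selective regions gave the same count. In gated nuclei 0 of 10923 genes (0%) were called by edgeR, and 0 of the 2160 tested genes with a selective region. Of these, 29 (1.34%) had an unadjusted p under 0.05, beside 1.53% of all tested. DESeq2 called 0 of 20364 genes, with 32 under 0.05 unadjusted. The smallest unadjusted p values among neighbours belonged to Myoc, Tmem200a, Ttr, Apod and Natd1 on the higher side in HF and to Rhob, Apln, Ergic1, Txndc5 and Rfwd3 on the lower side. Myoc stood at 5.51 and 6.71 CPM in the MF libraries and at 36.2 and 11.5 in the HF ones. Apln, which encodes the peptide apelin, had 23.4 and 15.1 against 6.35 and 7.39, a log2 difference of -1.45 ± 0.44 (SE). Ttr stood at 498 CPM in HF replicate 1 and at 15.2, 0.84 and 1.64 in the other libraries, so its diets overlapped. The adjusted p of these 10 genes was 1.0 in edgeR. With a library left out, 1 diet had a single library, so only log2 differences are given here. That of Ttr was 8.10 without MF replicate 1, 4.04 without MF replicate 2 and 6.20 without HF replicate 2. All of these fits included HF replicate 1, whose other nuclei also held Ttr, at 153 CPM. Myoc differed by 2.51 without HF replicate 2 and by 0.88 without HF replicate 1, beside 1.99 with all libraries. Tmem200a differed by 2.07 without HF replicate 1 and by 0.98 without HF replicate 2, beside 1.57 with all libraries. Counts of calls with a library left out are given in the closing section, for neighbour genes beside all genes. In none of the 10 gene lists was a region or a gene called, and the list medians over regions lay between -0.04 and 0.09.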

How the data were processed

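The authors aligned the reads to mm10 and counted them with Cell Ranger ARC 2.0.1, and they called peaks in each library on its own. The deposited GEX files hold raw UMI counts per gene and nucleus, and the deposited ATAC files hold raw counts of transposase cuts per peak and nucleus, neither normalized. Of the ATAC values above 0, 81.1 to 83.1% per library were even, as when both ends of a fragment are counted, so they were read as cuts. GEX and ATAC were joined by barcode, and every deposited barcode was used. The regions, the gene lists and the tests were chosen with earlier results of these data known. All gated nuclei of a library were summed, because nuclei of 1 library are not replicates, whereas the authors tested over nuclei. Library sums were compared between diets with edgeR 4.0.16 (quasi-likelihood test, TMM, filterByExpr, Benjamini-Hochberg adjustment over all regions or genes) in R 4.3.3, and with DESeq2 1.42.0 as an alternative. The standard error of a log2 difference was taken from the F statistic. CPM is per 1000000 cuts in shared regions or per 1000000 UMIs. RNA differences are on the log2(CPM + 1) scale, over genes with 100 or more UMIs, which understates low genes. Regions were annotated, and motifs searched, on GRCm38.p6 with GENCODE genes, with coordinates counted from 1. Of 32285 gene symbols 31432 matched 1 annotated gene, 58 several and 795 none. The diet test was tested on simulated data, where it missed most of the 2-fold changes. Other steps ran in Python 3.11.15 with SciPy 1.17.1.

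Genes were named by rule: up to 4 genes of each list with the most regions, with their most open region, the 10 regions with the largest folds, the 10 genes with the most regions, 3 regions on each side of the threshold, and the 5 regions and genes with the smallest p between diets in each direction. Some named items are not reported here. Alternatives were another reading of the 50-cut minimum (summed over 4 libraries), folds of 3 and 6, 2 or 4 markers, barcodes that met the authors' limits on genes (500 to 7000), unique ATAC reads (1000 to 70000, applied here to cuts) and mitochondrial UMIs (under 2%), merging at 100 bp, other normalization and filters, an offset for peak width, a replicate block, starts within 2 kb, 500 bp motif windows and leaving out each library. Depth limits precision, since MF replicate 1 had 2505022 gated cuts.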

Additional observations from a re-analysis of the deposited data

How the results depend on the processing

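The number of selective regions was 5134 to 5537 under other marker counts, the summed reading of the cut minimum, the quality thresholds and the stricter merging, 7420 at a fold of 3, 3206 at a fold of 6, and 3127 to 5070 with a library left out, lowest without MF replicate 2. Between diets, with a library left out, edgeR called 0 to 67 regions, 0 to 7 selective regions, 9 to 45 genes and 4 to 9 neighbour genes, most without MF replicate 2 except for neighbour genes, where it was HF replicate 1. The lone library of a diet was then assumed to vary like the others. Without the low count filter the calls were 1 region, 0 selective regions, 12 genes and 2 neighbour genes. Other normalization, the quality thresholds, DESeq2 and leaving out nuclei of 30000 or more cuts gave 0 in each, and the width offset, which applies to regions alone, gave 0 regions. The difference in the share of cuts, -0.31 points, ranged from -1.03 to 0.41 with a library left out, and it turned to 0.41 without MF replicate 1 and 0.33 without HF replicate 1. It was -0.48 under the quality thresholds and -0.45 over all cuts in peaks. The Kcng4 difference turned to 0.00107 with the width offset. Of 207 values of the named regions and genes 198 kept their direction and their side of the threshold and 8 passed it, 5 of them for Ttr, 2 for Myoc and 1 for Tmem200a. Besides the fits with a library left out, these were Ttr and Myoc without the low count filter (adjusted p of 2.28e-31 and 0.0142 in edgeR) and Ttr with the replicate block (5.68e-07). Ttr gave no value without HF replicate 1, nor Tmem200a and Natd1 without the nuclei of 30000 or more cuts. Starts within 2 kb took in 10.7% of regions, the NFI motif stood in 51.6% of 500 bp windows, and neighbour RNA had a median of 0.69 by gene body. At 500 bp 21 of 23 motifs kept their side of all regions. The cause of these changes was not tested.

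Replicate numbers of the 2 diets did not pair by their labels. Deviations of same-numbered libraries from the diet means correlated at 0.03 over regions and 0.33 over genes. With a replicate block edgeR called 0 regions, 0 selective regions, 7 genes and 2 neighbour genes, and the share difference with the block was -0.31.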
